A study of Mus musculus with 6 samples.

Results

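The comparison described here sets the library of T cells from mice given metformin together with rapamycin against the library from mice given metformin alone, so that rapamycin is the named difference and metformin is common to both sides. These are 2 of the 6 libraries of the study, and they were chosen by their treatment labels, MEP1+Metformin+Rapamycin and MEP1+Metformin. They are called the combination library and the metformin library below. No condition had a replicate, so every difference is one library against one other library.

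All libraries were bulk RNA sequencing of mouse CD4 T cells that carry CBir1, a transgenic T-cell receptor for a flagellin of gut bacteria, so the cells share 1 antigen specificity. Donor cells were CD45.1, CD4+ and CD44-, and were transferred on day 0 into C57BL/6 recipients carrying CD45.2, whose own immune cells were not stated to be depleted. Both groups compared were immunised on days 1 and 7 with 50 ug flagellin and 1 ug CT, received 3 ug of the peptide MEP1 intravenously on days 28 and 35, and had inhibitor in the vehicle CMC injected for 5 days after each. All recipients met 3 ug MEP1 again on day 56, and splenic donor cells were isolated by flow sorting on day 63. The vehicle library (MEP1+CMC) and the rapamycin library (MEP1+Rapamycin) had the same schedule without metformin, No treatment lacked the peptide and inhibitors of days 28 and 35, and the naive CD4 control is named only by its label. Inhibitor doses, the number, sex and age of mice, and whether mice were pooled are not stated in the sources used here.

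Rapamycin binds FKBP12, and the complex blocks mTOR complex 1, the kinase that couples nutrients and growth signals to protein synthesis and T-cell effector differentiation. Metformin acts upstream, by inhibiting mitochondrial complex I and activating AMPK, which itself restrains mTOR complex 1. When a T-cell receptor is engaged, calcium, ERK and NF-kB signals switch on a first wave of genes within minutes to hours. These include the Nr4a nuclear receptors, the Egr zinc-finger factors, the AP-1 subunits Fos and Jun, the NF-kB brake Tnfaip3 (A20) and the G-protein regulators Rgs1 and Rgs16.

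The promoters of the Nr4a family are shown because all 3 members were below their metformin level in the combination library, 2 of them at least 2-fold, and because their windows share a sequence feature. Each line gives 250 bases up to the transcription start from RefSeq on GRCm38.p6, written 5′ to 3′ in the direction of the gene. Capitals mark TGACG, the core of the cAMP response element bound by CREB and ATF factors, on either strand (CGTCA on the other).
Nr4a1, chr15:101266596-101266845, plus strand: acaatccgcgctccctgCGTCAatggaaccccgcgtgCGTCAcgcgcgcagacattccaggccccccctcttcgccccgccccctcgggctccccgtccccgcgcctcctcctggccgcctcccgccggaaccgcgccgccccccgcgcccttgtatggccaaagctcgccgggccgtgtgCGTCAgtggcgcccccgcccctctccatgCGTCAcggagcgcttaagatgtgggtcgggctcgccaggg
Nr4a2, chr2:57124004-57124253, minus strand: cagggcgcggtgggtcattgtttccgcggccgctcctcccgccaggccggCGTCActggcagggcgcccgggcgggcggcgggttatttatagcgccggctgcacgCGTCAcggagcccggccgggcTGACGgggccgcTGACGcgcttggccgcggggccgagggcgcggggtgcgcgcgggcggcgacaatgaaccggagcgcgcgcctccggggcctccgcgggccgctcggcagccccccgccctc
Nr4a3, chr4:48045055-48045304, plus strand: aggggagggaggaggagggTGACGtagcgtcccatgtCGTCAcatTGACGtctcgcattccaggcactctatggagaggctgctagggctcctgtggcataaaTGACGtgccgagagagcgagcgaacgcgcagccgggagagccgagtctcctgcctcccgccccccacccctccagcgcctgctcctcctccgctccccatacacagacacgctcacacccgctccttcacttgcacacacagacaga

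Each of the 3 windows holds 4 copies of TGACG. At least 4 copies were found in 0.34% of the 11607 windows of tested genes and in 0.14% of all 32851 windows in the table. The motif and the cut of 4 were taken from these 3 windows, which are among those counted. The shares therefore describe the windows and test nothing. A gene with several start sites has several windows, which can overlap, so shares are given per gene with a window. Of 19 early antigen-receptor genes with a window (of 26 measured), 10 (52.63%) held at least 1 copy, against 31.24% of the 9101 tested genes with one. The share was 26.89% among genes lower in the combination library and 12.99% among the higher genes. The CArG box of serum response factor was found in 2 of the 19 genes, Dusp5 and Egr2, and in 1.37% of tested genes. These matches describe letters in a window, and no binding was measured.

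The difference between the libraries was modest. Expression is given in TMM CPM, the usual CPM after trimmed-mean (TMM) scaling between libraries, and a gene passed the size rule when it differed at least 2-fold (1 on the log2 scale) with a 95% counting interval that excluded no change. Of 12838 genes, 163 were higher in the combination library (1.27%) and 219 were lower (1.71%), while the median absolute log2 ratio of all genes was 0.14. Most of them were weakly expressed. A level of 5 TMM CPM in the higher of the 2 libraries was reached by 50 of the higher and 51 of the lower genes, and a level of 50 TMM CPM by 8 and 11. Immunoglobulin segments and markers of other cell types made up 49 of the 163 higher genes and 15 of the 219 lower ones. Lists other than cell-type markers and sex-linked genes held 27 of the lower genes but 6 of the higher ones. These include metabolic and stress lists beside those of T-cell function, and the share of all tested genes in them was not computed.

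The genes that define CD4 T cells were expressed alike in both libraries. Of 12 CD4 T-cell identity genes none passed the size rule, and Cd4 itself was at 1008 TMM CPM in the metformin library and 1017 in the combination library. The transgenic segment Trbv13-1 took 98.8% and 98.9% of Trbv counts. Total counts were 44374250 and 50177994, over a range of 26139000 to 60622310 across the study, and 5 loci that resemble ribosomal RNA took 1.20% and 1.28% of them. Those loci took 3.13% in the rapamycin library and 15.4% in the naive control, against 1.00% in No treatment and 1.11% in the vehicle library, and their part in the values of these libraries was not tested. In sex-linked genes the libraries compared were alike, with Xist at 0.218 and 0.323 TMM CPM and Ddx3y at 95.8 and 87.0, and the rapamycin library was like them (0.486 and 62.0). The vehicle library (Xist 262, Ddx3y 0.307) and the naive control (43.1 and 0.377) had the opposite pattern, and No treatment had both transcripts (24.2 and 35.9). Differences from these 3 libraries, rapamycin against vehicle among them, therefore cannot be told apart from that sex-linked difference. The column heading of the No treatment file names no challenge, against its label, which was used. In these bulk samples, fewer cells of a type and less RNA per cell cannot be told apart.

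**Figure D1:**
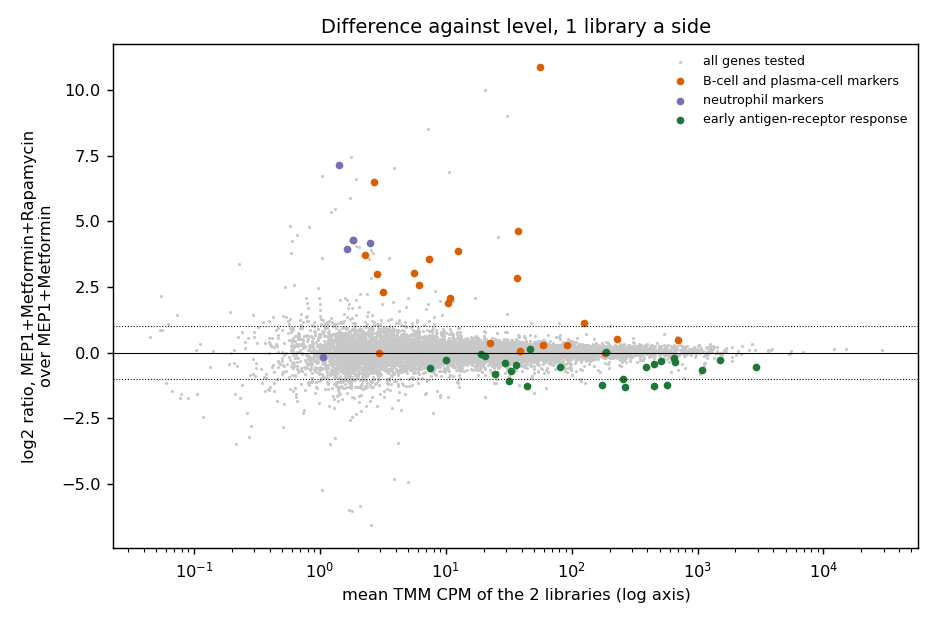
Log2 ratio of the combination library over the metformin library (vertical axis) against the mean TMM CPM of the 2 libraries (horizontal log axis), 1 point per tested gene, with dotted lines at 2-fold. Early antigen-receptor genes (green) lie mostly below 0 at high levels, while B-cell and plasma-cell markers (orange) and neutrophil markers (purple) lie mostly above 0.

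Genes of the early antigen-receptor response were lower in the combination library than in the metformin library. The inhibitor injections followed the peptide of days 28 and 35, whereas the challenge was on day 56 and the sort on day 63. No time within hours of a peptide dose was sampled. Of 26 measured genes 7 were lower past the size rule and none was higher. A ratio below 0 was found in 24, against 5542 of all 12838 tested genes. The list median was -0.55 against 0.03 for all genes tested (-0.54 after correction for gene length). The 7 were Nr4a1, Nr4a2, Egr1, Tnfaip3, Nfkbid, Rgs1 and Rgs16. The 2 with a ratio above 0 were Myc, the growth regulator (0.13), and Cd40lg, which encodes a ligand that helps B cells (0.03, less than the 0.0322 by which scaling to library totals lowers every ratio).

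Nr4a1 (Nur77, chromosome 15, 101266846 to 101274792, GRCm38), a nuclear receptor that reports receptor signalling and limits T-cell activation, was at 379 TMM CPM in the metformin library and 153 in the combination library. It was at 409 in the vehicle library, 145 in the rapamycin library, 829 in No treatment and 185 in the naive control. Both libraries with rapamycin were thus below the other 3 of transferred cells, and also below the naive control. The log2 ratio over metformin was -1.31 (interval -1.35 to -1.27).

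Nr4a2 (Nurr1), a relative of Nr4a1, followed the same order in the peptide-treated libraries, at 43.5 TMM CPM with metformin and 20.6 with the combination, and at 70.3 with vehicle and 17.1 with rapamycin. No treatment was at 14.0 and the naive control at 1.02, so the rapamycin libraries did not lie below all others. The log2 ratio was -1.08 (interval -1.19 to -0.98). The other member, Nr4a3, was at 31.4 and 17.8 (-0.82, not past the size rule), with 29.0 in the vehicle and 22.5 in the rapamycin library.

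Egr1, a zinc-finger factor switched on through ERK, was at 340 TMM CPM in the metformin library and 168 in the combination library (-1.02, interval -1.06 to -0.98). The vehicle library had 603, the rapamycin library 157, No treatment 1078 and the naive control 144. The rapamycin libraries were the lowest of the transferred cells and close to the naive level. Egr2, which takes part in T-cell anergy, was at 40.7 and 25.4 (-0.68) and did not pass.

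Tnfaip3, which encodes the ubiquitin-editing brake on NF-kB, was at 801 TMM CPM with metformin and 340 with the combination, at 1174 with vehicle and 334 with rapamycin, and at 1038 in No treatment and 104 in the naive control. Its log2 ratio was -1.24 (interval -1.26 to -1.21), and the 2 rapamycin libraries were within a few CPM of each other. Nfkbid, an atypical inhibitor of NF-kB that is itself induced by receptor signals, was at 244 with metformin and 104 with the combination (-1.23). In the vehicle and rapamycin libraries Nfkbid was at 165 and 120, in No treatment at 177 and in the naive control at 69.1. The other 20 of 22 genes on the NF-kB list did not pass and the list median was -0.0025, with the subunits Rela at 0.03, Nfkb1 at -0.20 and Rel at -0.71.

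Rgs1 and Rgs16 encode proteins that shut off G-protein signals from chemokine receptors. Rgs1 was at 643 TMM CPM in the metformin library, 266.5 in the combination, 1069 in the vehicle, 210 in the rapamycin, 942 in No treatment and 110 in the naive library (-1.27, interval -1.30 to -1.24). Rgs16 was at 62.2, 25.9, 198, 6.69, 46.1 and 2.58 in the same order (-1.26, interval -1.35 to -1.17). Both were lowest with rapamycin among transferred cells. Of 19 genes on the RGS and G-protein list, Gpr55, a lipid-sensing receptor gene at 10.3 and 3.46, was the only other one past the rule (-1.58), and the list median was 0.0025.

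**Figure D2:**
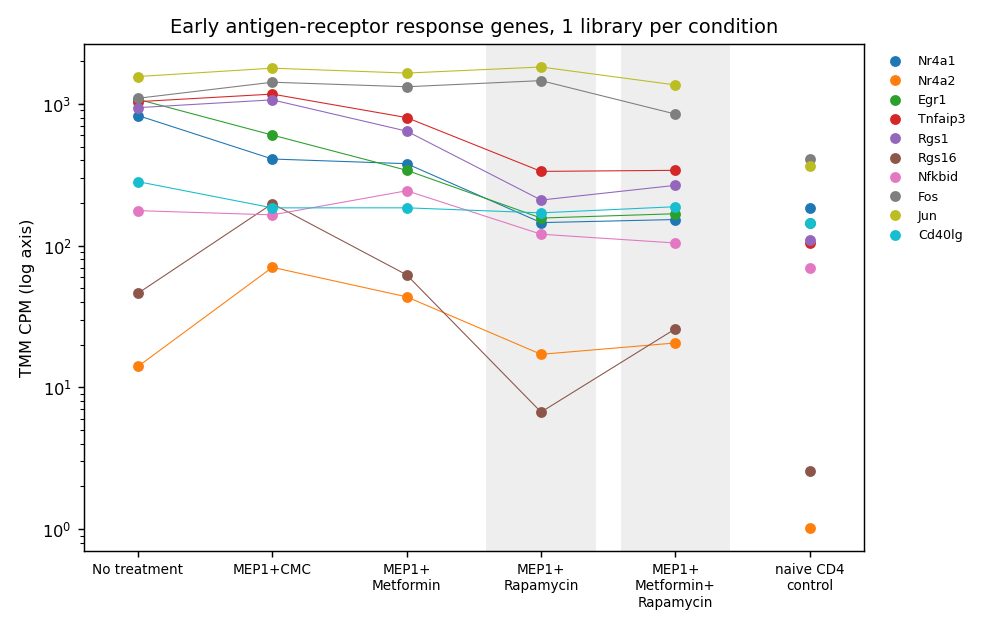
TMM CPM (log axis) of 10 early antigen-receptor genes in each library, 1 point per library, with lines joining the libraries of transferred cells as a guide only and grey bands marking those with rapamycin. Nr4a1, Egr1, Tnfaip3 and Rgs1 lie lower in both grey bands than in the other 3 libraries of transferred cells, whereas Fos and Jun are lower in the combination library but not in the rapamycin library.

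The AP-1 factors were lower by less. Of 18 measured AP-1 and BATF genes 2 passed, Maff (6.45 and 2.74 TMM CPM, -1.23) and the stress factor Atf3 (7.62 and 3.26, -1.22). Ratios were below 0 in 17, against 5542 of all 12838 tested genes, and the median was -0.45. Fos, Jun, Junb and Jund are on the early list as well, so the results of the 2 lists overlap. Of the abundant subunits, Fos was at 1323 in the metformin and 848 in the combination library (-0.64), Junb at 3466 and 2349 (-0.56), Jund at 463 and 314 (-0.56) and Jun at 1652 and 1362 (-0.28). The rapamycin library was at 1461 in Fos and 1823 in Jun and the vehicle library at 1424 and 1789, ratios of 0.04 and 0.03. The difference from the ratio on metformin was -0.68 (95% counting interval -0.70 to -0.66) for Fos and -0.31 (95% counting interval -0.33 to -0.29) for Jun. Batf, which drives effector differentiation with AP-1 partners, was the 1 member above 0 (0.26).

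Feedback inhibitors of the ERK pathway were below the metformin level without passing the size rule. Dusp6, the ERK phosphatase, was at 109 TMM CPM with metformin and 66.8 with the combination (-0.71), and at 138 with vehicle and 54.5 with rapamycin. Spry1, which blocks signalling from receptor to ERK, was at 63.3 and 37.5 (-0.76), and at 75.0 and 29.4. For both genes the 2 rapamycin libraries were the lowest of the 5 libraries of transferred cells. Dusp2 (-0.20) and Dusp4 (-0.28) differed less.

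The early-response genes were also examined by order alone, since both rapamycin libraries can be set against the 3 other libraries of transferred cells (vehicle, metformin and No treatment). This order uses the same combination and metformin values as the ratios above, so it is not independent of them. The rule was chosen after seeing the data, and the list with earlier results of these data known. In 17 of the 26 early genes both rapamycin libraries lay below all 3 others, where 13.4% of all tested genes did so, and in 1 gene (Myc) both lay above, where 7.68% did. The count of 17 was 14 with library totals, where 7.9% of all tested genes did so, and 21 when No treatment was left out, where 18.5% did. The AP-1 list, which shares members with the early list, had 10 of 18 below. B-cell, plasma-cell and neutrophil markers moved the opposite way between the libraries compared (values below), and their part in these results was not tested.

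Effector cytokine genes followed in part. Of 14 measured cytokine genes 3 were lower and none higher past the rule, with a list median of -0.17. The 3 were Ifng, the main macrophage-activating cytokine of Th1 cells, the regulatory cytokine gene Il10, and Spp1 (osteopontin). Ifng (chromosome 10, 118441047 to 118445892) was at 74.4 TMM CPM in the metformin library and 25.4 in the combination (-1.55, interval -1.64 to -1.46), with 63.8 in No treatment and 0.162 in the naive library. Il10 was at 7.16 and 2.40 (-1.57, interval -1.87 to -1.28) and Spp1 at 3.95 and 1.24 (-1.67). The rapamycin and vehicle libraries were further apart in these genes, with Ifng at 17.5 and 199, Il10 at 2.78 and 43.3 and Spp1 at 0.459 and 15.6. In each of these genes the 2 rapamycin libraries were closer to each other than their partners without it were.

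Other cytokine genes were nearer to no change. Tnf was at 42.6 and 25.2 (-0.75), and Il21, the B-cell help cytokine of follicular cells, at 37.9 and 23.8 (-0.67). The growth factor gene Csf1 (0.54) and the IL-6 family gene Osm (0.53) leaned the other way, and Il4 (0.23), Il2 (0.21) and Lta (-0.03) differed little.

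Among 6 chemokine genes Cxcl10, an interferon-induced attractant of Th1 cells, was the 1 past the rule, at 12.4 TMM CPM with metformin and 4.52 with the combination (-1.46). Ccl3 was at 63.02 and 33.8 (-0.90) and Ccl4 at 154 and 77.4 (-0.99), both inflammatory chemokines. Ccl4 sat at the 2-fold line, at -1.01 with DESeq2 size factors, -1.02 with library totals and -1.13 after correction for gene length, where Ccl3 was at -1.02. Ccl5, a further chemokine, was at 854 and 924 (0.11).

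Transcription factors of the Th1 programme split. Tbx21, which encodes the lineage factor T-bet, was at 34.1 TMM CPM with metformin and 17.1 with the combination, a ratio of -0.996 that lay just short of 2-fold and was -1.03 with library totals. Its relative Eomes was at 42.1 and 48.1 (0.19). The chemokine receptor gene Cxcr3 was at 209 and 124 (-0.75), Il18rap, a subunit of the IL-18 receptor, at 17.3 and 7.86 (-1.14), and Stat4 had a ratio of 0.12. Of the 13 genes, Il18rap was the 1 past the rule, and the median was 0.12.

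Inhibitory receptor genes stayed below the size rule. None of 16 coinhibitory and ectoenzyme genes passed, the median was -0.05, and ratios ran from -0.84 (Cd244a, at 2.54 and 1.42 TMM CPM) to 0.28 (Cd200). Havcr2, which encodes TIM-3, was at 7.00 and 4.23 (-0.73). Pdcd1, which encodes PD-1, was at 183 TMM CPM with metformin and 166 with the combination (-0.14, interval -0.18 to -0.10), Lag3 at 6.98 and 6.33 (-0.14) and Tigit at 70.8 and 62.9 (-0.17). The granule genes Gzmk (0.20) and Nkg7 (0.09) were likewise close to 0.

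Set beside rapamycin against vehicle, a comparison that shares no library with this one, the same genes differed in size. There, 661 genes were higher (5.15%) and 749 lower (5.83%). The ratios in that comparison were -4.04 for Ccl3, -4.08 for Ccl4, -2.65 for Ccl5, -3.42 for Eomes, -2.98 for Tigit, -2.74 for Lag3 and -1.34 for Pdcd1. The difference of the 2 ratios was 3.62 for Eomes (95% counting interval 3.47 to 3.76), 3.09 for Ccl4 (3.00 to 3.18) and 2.60 for Lag3 (2.27 to 2.93). For Nr4a1 it was 0.18 (0.13 to 0.24), for Trp53inp2 -0.45 (-0.66 to -0.24) and for Klrb1c -0.14 (-0.97 to 0.70). The vehicle library was the highest of the 6 in Ccl3 (292.5), Ccl4 (710), Ccl5 (2796), Eomes (165), Tigit (214) and Lag3 (24.3). No treatment had 61.5, 165, 704, 37.7, 104 and 4.76 in the same order. Since the vehicle library also differs in sex-linked genes, what metformin has to do with the smaller ratios was not tested.

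Over all genes, the ratios of the 2 comparisons were weakly related. Across 12808 genes the log2 ratios had a Pearson correlation of 0.061 and a Spearman correlation of 0.189, given as a description across genes, which are not replicates. In genes with at least 10 TMM CPM in either library compared, the Pearson value over 8759 genes was 0.098. Of genes lower in the combination over metformin, 73 were also lower in rapamycin over vehicle (33.3% of the first list, 9.75% of the second) and 33 were higher there. Of the higher genes 39 were shared (23.9% and 5.90%) and 32 were lower there.

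**Figure D3:**
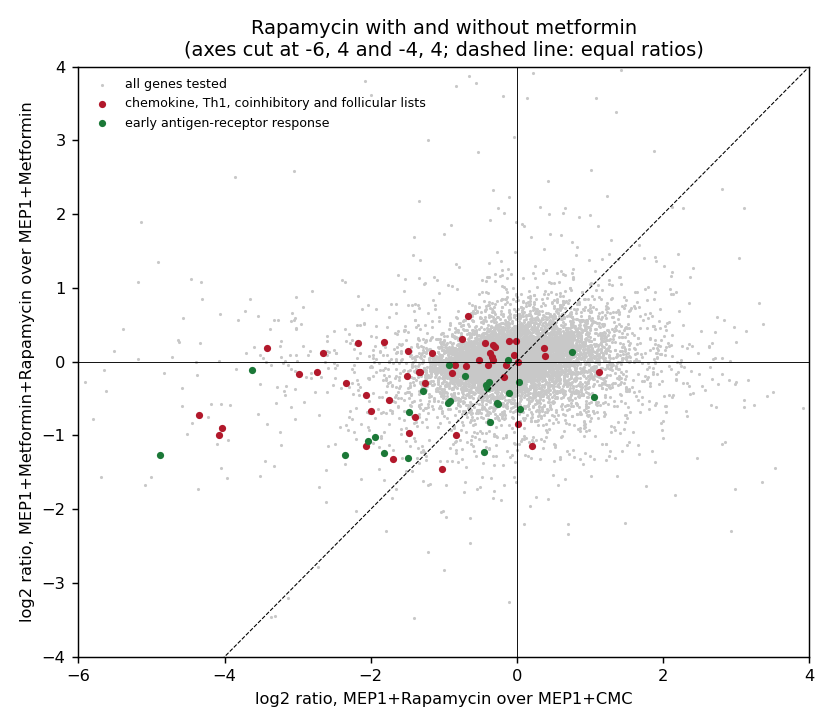
Log2 ratio of the combination over metformin (vertical) against that of rapamycin over vehicle (horizontal), 1 point per tested gene, with axes ending at -4 and 4 (vertical) and -6 and 4 (horizontal) and a dashed line where both are equal. Chemokine, Th1, coinhibitory and follicular genes (red) reach -4 on the horizontal axis while most stay between -1 and 0.3 on the vertical one, and several early antigen-receptor genes (green) lie near the dashed line.

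Follicular helper genes were also closer to no change than in the other comparison. Of 18 genes 2 were lower past the rule, with a median of -0.14, against 10 lower and a median of -1.29 for rapamycin over vehicle. The 2 were Angptl2, a secreted angiopoietin-like factor at 174 and 79.1 TMM CPM (-1.14, interval -1.19 to -1.09), and the weakly expressed Cebpa (2.14 and 0.861, -1.32). Cxcr5, the receptor that leads cells into follicles, was at 97.4 and 71.0 (-0.46), Bcl6, the follicular lineage factor, at 22.3 and 18.3 (-0.29), and Tcf7, which encodes TCF-1, at 1524 and 1484 (-0.04).

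Regulatory T-cell genes did not move as a group. Of 16 genes 1 was higher and 1, Il10, lower, the list median being 0.07. The lineage factor gene Foxp3 (chromosome X, 7579676 to 7595243), was at 58.7 TMM CPM in the metformin library and 72.6 in the combination, a ratio of 0.31 (interval 0.24 to 0.38), with 51.8 in the vehicle, 115 in the rapamycin, 7.92 in No treatment and 13.9 in the naive library. Both rapamycin libraries were the highest 2 of the 6. Itgae, which encodes CD103 and binds E-cadherin on epithelium, was the member past the rule, at 1.88 and 8.09 (2.10, interval 1.78 to 2.44). It was at 1.48 in the rapamycin library and at 1.11 to 1.35 in the other 3, so the combination library stood alone. Only the combination library brought Itgae past the filter of at least 2 TMM CPM in at least 1 library. Its place among the higher genes was therefore set in part by the filter.

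Several receptor genes and other genes were higher in both rapamycin libraries. Which cells in the samples expressed them was not tested. Klrg1, an inhibitory lectin receptor of antigen-experienced cells that binds cadherins, was at 4.60 TMM CPM with metformin and 18.2 with the combination (1.98, interval 1.78 to 2.19), and at 11.4 with vehicle and 22.8 with rapamycin. Il1rl1, which encodes the IL-33 receptor ST2, was at 0.615 and 4.45 (2.85, interval 2.31 to 3.44), and at 1.19 and 4.40. The homeobox gene Otx1 was at 6.56 and 27.9 (2.09, interval 1.92 to 2.26), and at 5.46 and 26.4. In these 3 genes both rapamycin libraries were above every other library, with No treatment at 3.70, 0.556 and 2.35 and the naive control at 0.108, 0 and 0. Gucy1a1, a subunit of the nitric oxide receptor (4.96 and 13.6, 1.45), Serpinb1a, a protease inhibitor (4.46 and 11.5, 1.37), and Plxdc2 (3.37 and 10.6, 1.65) showed the same order within the transferred cells.

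The inducible heat shock genes were higher as well. Hspa1a, which encodes the chaperone HSP70, was at 50.4 TMM CPM with metformin and 109 with the combination (1.11, interval 1.05 to 1.18), and at 87.1 with vehicle, 209 with rapamycin, 51.4 in No treatment and 52.5 in the naive control. Its neighbour Hspa1b, a near-identical copy between which reads can be split, was at 135 and 271, with 325 in the vehicle, 536 in the rapamycin, 204.5 in No treatment and 221.5 in the naive library. The combination library was thus above metformin but below vehicle in Hspa1b. Its ratio of 1.00 was on the 2-fold line and was 0.97 with library totals. The other 17 of 19 chaperone genes did not pass.

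Among the lower genes outside the lists above, Klrb1c (NK1.1), a lectin receptor of NK cells and some T cells, had the lowest ratio of those with at least 5 TMM CPM in either library, immunoglobulin segments and unnamed gene models left out. It was at 7.66 in the metformin library and 0.699 in the combination (-3.45, interval -3.97 to -2.97), and at 4.83 with vehicle and 0.485 with rapamycin. Of the other 3 measured NK-cell markers none passed, Klre1 being at -0.96, Tyrobp at 0.33 and Fcer1g at 0.25. Slc43a1, a transporter of large neutral amino acids, was at 13.1 and 2.65 (-2.30, interval -2.56 to -2.04), and at 6.07 and 1.75 in the vehicle and rapamycin libraries. Trp53inp2, which takes part in autophagy and nuclear receptor signalling, was at 31.1 and 9.77 (-1.67, interval -1.81 to -1.53), and at 25.4 and 10.9. All 3 were lower in both rapamycin libraries than in the other 3 libraries of transferred cells.

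Other genes were lower in the combination without that order. Ly6c2, a surface protein of memory T cells and monocytes, was at 90.3 and 35.3 TMM CPM (-1.36) but at 13.1 with vehicle and 48.7 with rapamycin. The factor Klf4 was at 10.4 and 3.60 (-1.53), with 9.84 and 13.8. Cdkn1a, the p21 cell-cycle inhibitor, kept it, at 6.23 and 2.22 (-1.49) and at 11.4 and 4.21.

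Genes of mTOR signalling and growth differed little at the RNA level. None of 41 genes of the mTOR complexes and their inputs passed, and the median was 0.06. Mtor was at 27.2 TMM CPM with metformin and 24.1 with the combination (-0.18), Rptor, the scaffold of complex 1, at 42.3 and 40.3 (-0.07), and Ddit4, the stress-induced inhibitor of the complex, at 9.28 and 15.2 (0.71). Odc1, the first enzyme of polyamine synthesis, was lower, at 161 and 76.6 (-1.07, interval -1.13 to -1.02), with 191 in the vehicle and 66.3 in the rapamycin library. Of the other 26 polyamine and nucleotide genes none passed. Egln3, a prolyl hydroxylase of the hypoxia pathway, was at 17.0 and 7.76 (-1.13) and was the 1 gene of 14 hypoxia targets past the rule.

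Ribosomal protein genes and several metabolic lists had small medians and no gene past the size rule. In a further list, cholesterol and fatty acid synthesis, 1 of 29 genes was higher, the fatty acid desaturase gene Scd1 at 0.734 and 3.46 TMM CPM (2.24), and the median was -0.01. All 51 cytosolic ribosomal protein and elongation factor genes had ratios above 0, against 7277 of all 12838 tested genes. They ran from 0.11 to 0.32 with a median of 0.22, and none passed. No gene passed of 25 in glycolysis (median 0.06), 45 nuclear genes of the respiratory chain (0.10), 21 of fatty acid oxidation (0.04), 13 encoded in mitochondria (-0.05), 33 of autophagy and lysosome (-0.03) and 16 of AMPK and energy stress (0.03). Single genes ranged more widely, from -0.69 to 0.24 in autophagy and lysosome, from -0.37 to 0.58 in AMPK and energy stress and from -0.27 to 0.49 in glycolysis. In 14 of the 33 autophagy and lysosome genes both rapamycin libraries were below the other 3, where 13.4% of all tested genes did so. Library totals lower every ratio by 0.0322, so medians of that size carry no direction.

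Resting and naive genes also stayed below the size rule, with none of 22 past it and a median of 0.08. Il7r, the receptor of the survival cytokine IL-7, was at 320 TMM CPM with metformin and 393 with the combination (0.29). Klf2, a quiescence factor, was at 582 and 439 (-0.41). Igfbp4 was at 265 and 353 (0.41), where rapamycin over vehicle gave 2.52.

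**Figure D4:**
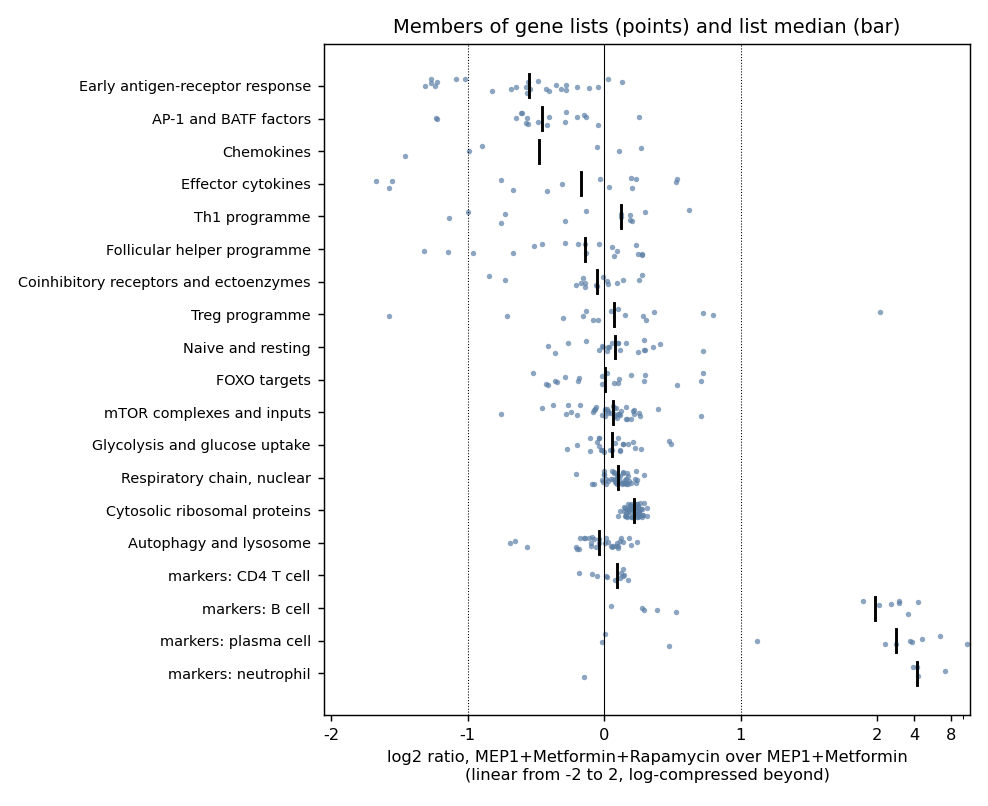
Log2 ratio of the combination over metformin for each tested member (points) of 19 gene lists, with the list median as a bar, dotted lines at 2-fold and a horizontal axis that is linear from -2 to 2 and log-compressed beyond. The early antigen-receptor and AP-1 lists lie to the left of 0, the medians of the metabolic and resting lists close to 0, and the B-cell, plasma-cell and neutrophil markers far to the right.

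Markers of other cell types were among the most different genes of the comparison. Beside the counts of markers below, 1.27% of all tested genes were higher in the combination library and 1.71% were lower. Of 12 B-cell genes 7 were higher in the combination library and none lower, and their summed TMM CPM was 397 in the metformin and 580 in the combination library (431 to 1259 in the other 3 of transferred cells). Ms4a1, which encodes CD20, was at 1.21 and 9.99 (3.05, interval 2.66 to 3.45), with 3.00 in the vehicle, 2.91 in the rapamycin, 2.29 in No treatment and 16.6 in the naive library. In Ms4a1 the combination library was the highest of the transferred cells and the metformin library the lowest of the 6.

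Of 11 plasma-cell genes 8 were higher and none lower, with sums of 868 and 1465 TMM CPM (985 to 2037 in the other 3). Among the 8, Ighg1 (0.317 and 4.23) passed the filter of at least 2 TMM CPM only through the combination library. The count of 8 was therefore set in part by the filter. The immunoglobulin A gene Igha had 3 counts in the metformin library and 6283 in the combination (10.89, interval 9.34 to 13.17). Jchain, which links IgA and IgM into polymers, was at 8.98 and 64.3 TMM CPM (2.84, interval 2.70 to 2.98), and Igkc at 79.0 and 172. Xbp1 (0.01) and Sdc1 (-0.02), which plasma cells also express, did not differ beyond 2-fold.

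Of 5 neutrophil genes 4 were higher, from a sum of 1.77 TMM CPM to 15.1, with S100a8 at 0.178 and 3.46 and Ngp at 0.258 and 4.72. The sum was 6.69 with rapamycin, 4.23 with vehicle and 4.14 in No treatment. S100a8 was at 3.18 with rapamycin and 1.62 with vehicle, but Ngp at 0.674 and 1.26. In 3 of the 5 genes both rapamycin libraries were above the other 3 of transferred cells, where 7.68% of all tested genes were. These 5 of 11 list members passed the filter, and Ltf, Ngp and S100a9 did so only through the combination library. The counts of 4 and 3 were therefore set in part by the filter. Below the filter, Camp and Elane had 0 counts in the metformin library and 52 and 9 in the combination. Of 20 macrophage and dendritic-cell genes 1 was higher and 2 were lower (Marco -2.20 and Siglech -1.81), with sums of 696 and 758. Erythroid genes had 1 of 10 higher, Slc4a1, with 0 counts in the metformin library and 74 in the combination. Its log2 ratio was 4.48 with the 0 set to a floor of 3 counts, and its counting interval began at 4.15. The erythroid sums were 65.5 and 65.4, and those of NK-cell markers 48.6 and 50.0. What these markers have to do with the T-cell genes above was not tested.

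**Figure D5:**
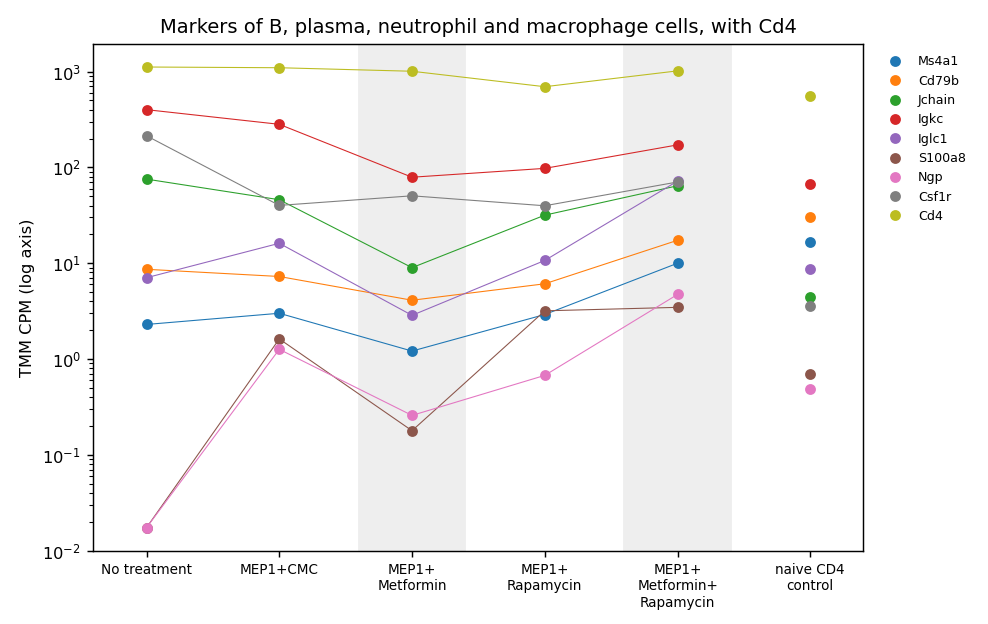
TMM CPM (log axis) of 8 markers of B cells, plasma cells, neutrophils and macrophages, with Cd4 for reference, 1 point per library, lines as a guide only and grey bands on the 2 libraries compared. Ms4a1, Jchain and Iglc1 are low in the metformin library and higher in the combination library, while Cd4 lies at 1008 and 1017.

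A model across libraries gave the only test. An additive fit of metformin and rapamycin over the 4 peptide-treated libraries (edgeR quasi-likelihood, Benjamini-Hochberg adjustment over 12838 genes) has 1 residual degree of freedom and measures rapamycin once with and once without metformin. That degree of freedom is the departure from additivity and no spread of replicates. By this fit 13 genes rose with rapamycin (0.101%) and 28 fell (0.218%), and 3 and 6 of these were immunoglobulin segments. The combination and metformin libraries are 2 of its 4, so its calls are not independent of the ratios above. Of its 9 alternatives, 4 leave out a library and with it the metformin term, so that 1 residual degree of freedom is kept. In these 4 fits, libraries that differ in metformin stand as replicates. The ranges and the counts of alternatives below include these fits and are no measure of robustness.

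Early antigen-receptor genes gave 6 of the 28 that fell. Nr4a1 fell by 1.40 on the log2 scale (SE 0.22, edgeR adjusted p = 0.0052, range over 9 alternatives 2.5e-12 to 0.065). Tnfaip3 fell by 1.52 (edgeR adjusted p = 0.0052, range 5.7e-13 to 0.15), Rgs1 by 1.81 (0.0079, range 1.7e-12 to 0.13) and Nr4a2 by 1.56 (0.0088, range 1.5e-09 to 0.13). Egr1 and Egr2 were the other two, at an edgeR adjusted p = 0.013 (range 7.3e-09 to 0.51) and an edgeR adjusted p = 0.049 (range 0.00025 to 1). Each was lower in both rapamycin libraries than in the partner without it. Rgs16, which differed by -1.26 and -4.89 in the 2 comparisons, had an edgeR adjusted p = 0.92, and Ifng one of 0.88.

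Of the remaining genes that fell, Klrb1c (SE 0.45, edgeR adjusted p = 0.00081, range 1.8e-06 to 0.065), Slc43a1, Trp53inp2, Odc1, Angptl2 and Egln3 were described above. Others were the ERK inhibitors Dusp6 and Spry1, the GTPase gene Gem, the cytokine gene Tnf and the chemokine receptor gene Cxcr3. Those that rose included Otx1, by 2.18 (SE 0.25, edgeR adjusted p = 0.00014, range 4.6e-13 to 0.022), Hspa1a, Klrg1, Il1rl1, Serpinb1a, Gucy1a1, the integrin gene Itgb3 (0.66 over metformin) and Cybb, the NADPH oxidase subunit (29.5 and 64.8 TMM CPM, 1.13 over metformin). Otx1 was called in 9 of 9 alternatives, Hspa1a in 6 of 9, Klrg1, Gucy1a1 and Cybb in 4 of 9, Serpinb1a in 4 of 8, Il1rl1 in 3 of 8 and Itgb3 in 3 of 9. Of those that fell, Trp53inp2 and Angptl2 were called in 8 of 9, Klrb1c in 7 of 8, Odc1 in 7 of 9, Slc43a1 in 5 of 8, Egln3, Dusp6, Spry1 and Tnf in 5 of 9, and Gem and Cxcr3 in 4 of 9.

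These calls depended on the fit. With DESeq2 size factors in the same test 2 genes rose and none fell, where 282 and 463 did so at an unadjusted p below 0.05, and the DESeq2 Wald test gave 24 and 53. With 3 libraries the metformin term was dropped, so that libraries differing in metformin stand as replicates, and these counts are of another model and not to be compared in size with 13 and 28. They were 20 that rose and 14 that fell without vehicle, 51 and 210 without metformin, 15 and 10 without rapamycin and 71 and 283 without the combination.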

How the data were processed

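Bulk RNA sequencing of 6 libraries, 1 per condition, was analysed, and groups were taken from the treatment labels. The deposited files hold raw counts per gene. Per the submitters' processing notes, Trimmomatic 0.36, STAR 2.5.2b and featureCounts (Subread 1.5.2) were used with GRCm38. The strand setting, annotation release and handling of multiply mapped reads are not given in the sources used here, so overlapping, antisense and near-identical genes (immunoglobulin segments, Hspa1a and Hspa1b) are uncertain. Of 49315 Ensembl identifiers, 49056 got a symbol from GENCODE M21.

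Counts were scaled by TMM (edgeR 4.0.16, R 4.3.3) over 6 libraries, with factors of 1.14 for metformin and 1.11 for the combination. Genes with at least 2 TMM CPM and 10 counts in at least 1 library were kept. Ratios carry exact 95% Clopper-Pearson intervals (scipy 1.17.1), which cover counting error only, since no condition had a replicate. Amplified reads without molecular tags are no independent molecules, so the intervals can be too narrow even for that error. A count of 0 was replaced by 3 counts, and no ratio was given when both counts were at or below 3. The rapamycin term was fitted by glmQLFit and glmQLFTest, and DESeq2 1.42.0 was an alternative. The p-values of the rapamycin term reflect the spread among these libraries alone, which may be technical. In the additive fit that spread is the departure from additivity, with the sex-linked difference of the vehicle library in it. It is no spread among replicates. Scripts were tested on simulated data.

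Lists (50, with 942 genes, of which 862 were tested) and members were chosen with earlier results of these data known. Genes were named by rule: the 20 highest and 20 lowest past the size rule with at least 5 TMM CPM, up to 6 past it per list, a fixed panel, and the 10 largest differences from rapamycin over vehicle each way. Other list members and genes called by the rapamycin term were named after their values were seen. Some genes of the lists are not reported here by name.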

Additional observations from a re-analysis of the deposited data

Results flagged for a closer look

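A few genes passed the size rule in opposite directions in the 2 comparisons that add rapamycin, the combination over metformin and rapamycin over vehicle. With 1 library in each, the difference was not tested beyond counting error, and the vehicle library differs in sex-linked genes. Markers of B and plasma cells were among them, Blk with a log2 ratio of 3.00 on metformin and -1.21 on vehicle, Cr2 with 2.59 and -3.05, and Igha with 10.89 and -2.55. The erythroid gene Slc4a1 had 4.48 (against a floor of 3 counts) and -1.62. Siglech, a marker of plasmacytoid dendritic cells, had -1.81 and 2.17, and Ly6c2 had -1.36 and 1.89. The adhesion receptor gene Adgrg5 had -1.68 and 1.77 and the small GTPase gene Rasl12 had 1.08 and -4.32. Tsix, antisense to Xist, had 1.08 on metformin, where 0 and 7 counts were found, and -6.07 on vehicle.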

How the results depend on the processing

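The counts of 163 higher and 219 lower genes stayed within 1.5 times of these values under DESeq2 size factors, library totals, TMM over the 2 libraries, removal of ribosomal RNA-like, mitochondrial and receptor loci, and removal of the length trend. They were 1092 and 2366 with no filter beyond 1 count, 18 and 22 with a mean of at least 10 CPM, 505 and 566 at 1.5-fold and 73 and 58 at 3-fold. The share of higher genes was 42.7%, against 31.6% with no filter and 55.7% at 3-fold. Among 107 named genes under 5 alternatives, 0 of 535 values changed sign past the rule and 15 moved by more than their counting interval. The rapamycin term gave 24 that rose and 53 that fell by the DESeq2 Wald test, 2 and 0 with DESeq2 size factors (282 and 463 at an unadjusted p below 0.05), 6 and 15 with no filter beyond 10 counts and 23 and 71 with a mean of at least 10 CPM. Leaving out each library, which also drops the metformin term and so changes the model, gave 15 to 71 that rose and 10 to 283 that fell. Both rapamycin libraries lay below the other 3 in 1724 genes and above in 986, which were 1012 and 1483 with library totals. Without No treatment the second was 1682, and without MEP1+CMC 1272. The order rule and its alternatives were chosen after seeing the data. The cause of these shifts was not tested, except that the filters change how many genes are counted. No paired analysis was possible because each condition has 1 library.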
